A study of Mus musculus with 88 samples.

Results

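Livers of mice irradiated at the collum, thorax and abdomen (group C, 3 mice) were compared directly with livers of mice irradiated at the thorax and abdomen (group B, 3 mice), so that the irradiation of the collum, the neck region that holds the thyroid, was what the setups differed in. The paper states that mice were put into groups by similar body geometry. A difference in body size between groups therefore cannot be told apart from the setup. These 6 arrays were chosen by their labels for tissue and irradiated area, out of 88 arrays in the series. All mice were female BALB/c nude mice, 4 months old, which carry the Foxn1nu mutation and lack a thymus, and the liver lay within the irradiated area in both groups. Groups B and C received 2 Gy of 4 MV photons under anesthesia and the organs were excised after 24 h. Livers of mice irradiated only at the collum (group A, 3 mice, 2 Gy) and of anesthetized, sham-irradiated controls (5 mice, 0 Gy) were measured in the same way. They entered the estimate of the spread and are given beside the comparison. Total RNA was hybridized to Illumina MouseRef-8 arrays, and values are log2 signals after background correction and quantile normalization.

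Ionizing radiation breaks DNA, and the transcription factor p53 responds by inducing genes for cell cycle arrest, DNA repair and cell death, of which Cdkn1a is the best known. Hepatocytes also adjust their handling of lipid to nutrients and hormones: in the fed state they make fatty acids and sterols, and in the fasted state the nuclear receptor PPARα induces genes for the oxidation of fatty acids in mitochondria and peroxisomes. Surplus fatty acid is stored in lipid droplets, which are coated by perilipins and CIDE proteins, and thyroid hormone acts on several of the same genes.

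Group C replicate 2 stood apart from the other 13 liver mice before any comparison was made. Its mean Pearson correlation with the others over all tested probes was 0.942, while that of the other mice lay between 0.975 and 0.981. On the first principal component, which held 30.7% of the variance, it scored 66.0 and the others from -8.66 to 4.00. Its share of detected probes, 37.0%, lay within the range of all liver mice (36.5% to 40.3%). Values are therefore also given without this mouse. The hepatocyte genes Apoa1, Ttr and Ahsg were among the brightest in every mouse of groups B and C (log2 signals from 14.53 to 15.02 at their brightest probes). The brightest Alb probe was dim, with means of 6.85 in group B and 7.51 in group C. Of 43 defining markers of cell types, pancreatic ones included, 27 were counted as detected. The count missed transferrin, searched as Tf, which was measured as Trf (means of 15.07 and 15.13).

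**Figure D1:**
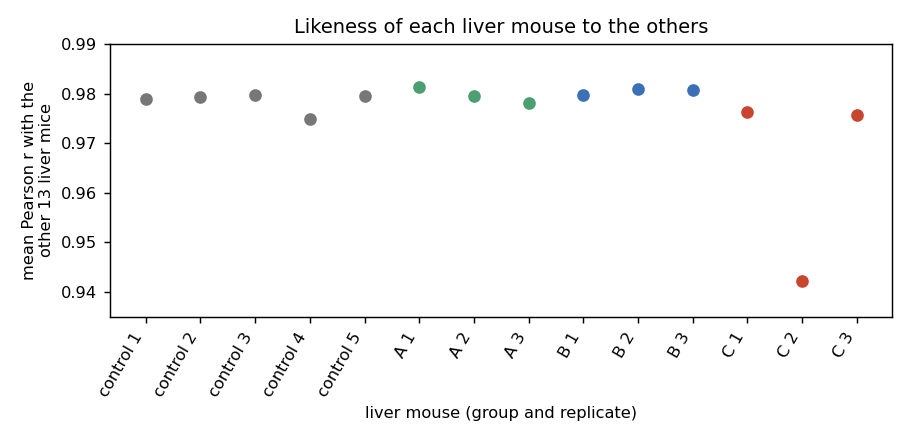
Mean Pearson correlation (r, no unit) of each liver mouse with the other 13 liver mice over all tested probes. Group C replicate 2 lies at 0.942, and every other mouse lies at 0.975 or above.

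No transcript passed the thresholds of the study (adjusted p under 0.01 and a log2 difference of at least 0.58 in either direction) between groups C and B, which is 0% of 10623 tested. The smallest p after adjustment by limma was 0.0817. At an unadjusted p under 0.05, 710 transcripts (6.68%) were higher in group C and 630 (5.93%) were lower. The 3 mice of group C lay above the 3 of group B for 771 transcripts (7.26%) and below them for 710 (6.68%). The median log2 difference over all transcripts was -0.00. Because no transcript was called, the values below describe these 6 mice, and an unadjusted p under 0.05 is given as a mark of size against the spread and not as a call.

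The count of calls changed on leaving out 1 mouse of group C. Without group C replicate 1, the mouse of group C that lay nearest to group B for Cidec, Plin4, Cyp2b10 and Hspa5, 14 transcripts passed both thresholds. They were Cidec, Cyp2b10, Plin4, Cpt1b, Gadd45a (both probes), Hspa5, Ehhadh, Pex11a, Tdo2, Cdkn1a (dimmer probe), Insig2, Phf12 and a probe with no gene name here. Among these the log2 difference without that mouse was 3.19 for Plin4 and -2.53 for the brighter Gadd45a probe (adjusted p of 0.00366 and 0.00538 by limma). Leaving out any other single mouse of either group gave 0 calls. The 14 calls thus needed both group C replicate 3 and group C replicate 2, the mouse that stood apart. Leaving out the mouse nearest to group B also widens such differences by itself, so these calls do not show that the groups differ.

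**Figure D2:**
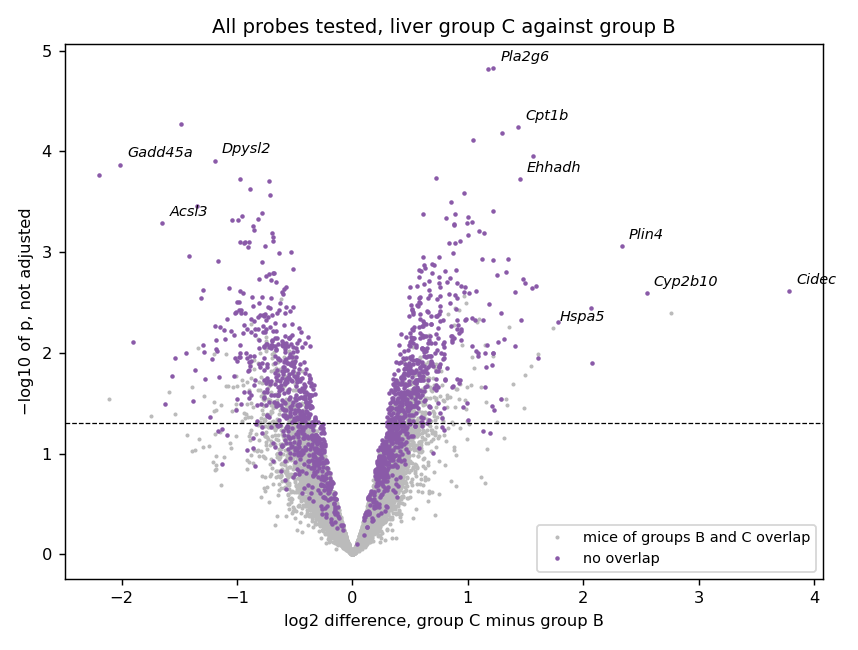
Log2 difference of group C minus group B (x axis) and −log10 of the unadjusted p (y axis) for the 10623 tested probes in the liver. Purple points are probes at which the 3 mice of one group do not overlap the 3 of the other, and the dashed line marks an unadjusted p of 0.05. Pla2g6 has the smallest p, at a difference of 1.22, and the brighter Gadd45a probe lies at -2.01.

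Among the gene lists, those of fatty acid oxidation and the fasted liver differed most often in one direction. The lists were chosen with earlier results of these data known, so their counts describe these mice and test nothing. Of 39 genes listed, 30 were measured, and 18 of these were higher in group C at an unadjusted p under 0.05 while 0 were lower. The 18 include Cidec and Pdk4, which no array of group B detected. Over all 7503 genes, each at its brightest probe, 6.93% were higher and 5.68% lower by the same mark. The same shares apply to the counts of the other liver lists below. The 3 mice of group C lay above those of group B for 15 of the 30 members, Cidec among them, against 7.72% of all genes. They lay below them for 0, against 6.65%. The median log2 difference of the list was 0.45, against 0.01 over all genes, and 0.37 with the 3 members that no array of group B detected (Cidec, Pdk4 and Acot2) set at their lower bounds. The median was 0.42 without group C replicate 2, when 12 members were higher and 0 lower. Without that mouse, 387 of all 7503 genes were higher and 325 lower. In single mice of group C the median of the list stood 0.18, 0.62 and 0.48 above the mean of group B.

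Crat, carnitine acetyltransferase, which passes acetyl groups between coenzyme A and carnitine, had log2 signals of 7.19, 7.30 and 7.61 in group B against 8.56, 8.41 and 8.66 in group C. All 3 mice of group C were higher than every mouse of group B, and also than every control (7.13 to 7.79). The difference was 1.17 ± 0.19 (SE, n = 3 and 3 mice) or 2.26-fold (adjusted p = 0.0817 by limma), and it was 1.24 without group C replicate 2. A second, dimmer Crat probe was detected on 1 array of group B and 2 of group C and differed by 0.14.

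Ehhadh, the bifunctional enzyme of peroxisomal β-oxidation and a classical target of PPARα, gave 9.92, 9.80 and 9.54 in group B against 10.47, 11.49 and 11.64 in group C. The groups did not overlap, and the log2 difference was 1.45 ± 0.29 (2.73-fold, adjusted p = 0.151 by limma, n = 3 and 3). Group B lay 0.36 below the mean of the controls and group C 1.08 above it. Group A, whose liver was outside the irradiated area, had a mean of 11.10, close to that of group C (11.20).

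Acot1, an acyl-CoA thioesterase, differed by 1.46 ± 0.44, from 11.03, 11.94 and 12.15 in group B to 12.37, 13.64 and 13.49 in group C (adjusted p = 0.254 by limma, n = 3 and 3). Cyp4a14 and Cyp4a31, ω-hydroxylases of fatty acids, differed by 1.29 ± 0.53 and 0.97 ± 0.29, and their means in group A (13.04 and 11.76) again lay near those of group C (13.35 and 11.66). Whole lists did not all show this likeness. Relative to the controls, the oxidation list had a median of 0.28 in group A and 0.48 in group C. The medians were -0.06 and 0.77 for lipid droplet genes, 0.01 and 0.22 for thyroid hormone response and 0.26 and -0.46 for sterol synthesis. Cpt1b, a carnitine palmitoyltransferase better known from muscle, gave 5.57, 5.36 and 4.87 in group B, where 1 of the 3 arrays detected it, and 6.07, 7.19 and 6.83 in group C. Angptl4, a secreted inhibitor of lipoprotein lipase, differed by 0.84 ± 0.20 with no overlap between the groups (11.80, 12.14 and 11.79 against 12.51, 13.12 and 12.60).

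Smaller differences were found at some of the mitochondrial steps. Eci2 and Eci1, enoyl-CoA isomerases, were higher by 0.76 and 0.35, Cpt2 by 0.57, Hadhb of the trifunctional protein by 0.52, the very long chain dehydrogenase Acadvl by 0.34, and Ppara itself by 0.52, each with the 3 mice of group C above those of group B. The carnitine transporter Slc22a5 was higher by 0.80 with overlap. Other members did not follow. The acyl-CoA dehydrogenases Acadm (0.12) and Acadl (-0.004), Decr1 (-0.18) and the thioesterases Acot3 (-0.02) and Acot4 (0.02) had differences smaller than their SE. Acaa2 differed by -0.27 ± 0.20, Slc25a20 by 0.23 ± 0.20 and Etfdh by 0.19 ± 0.19, each with overlap. Bdh1, a ketone body enzyme, was the member with the lowest difference at -0.64, and at -0.01 without group C replicate 2.

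**Figure D3:**
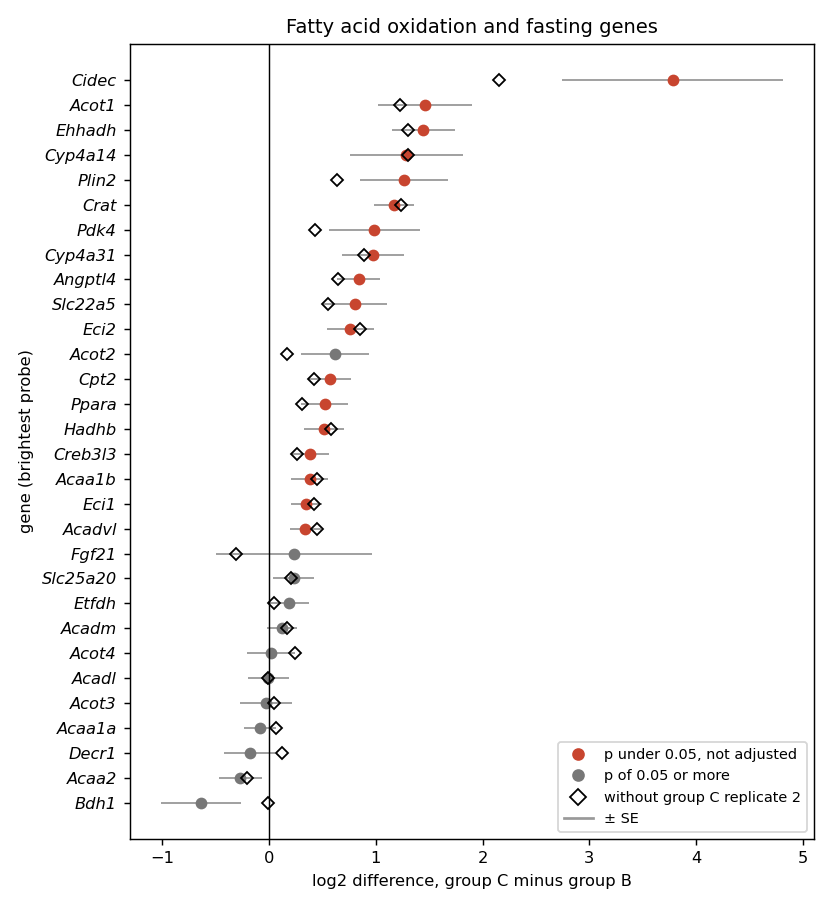
Log2 difference of group C minus group B in the liver (x axis) with its SE for the 30 measured genes of fatty acid oxidation and fasting (y axis), in order of size. Red circles mark the 18 genes with an unadjusted p under 0.05, all to the right of 0, and diamonds give the difference without group C replicate 2, which takes Plin2 from 1.26 to 0.64. No array of group B detected Cidec, Pdk4 and Acot2, and their fitted values are no measured differences.

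Transcripts of lipid droplet proteins were higher in group C in part, with a wide spread among its mice. Cidec, which fuses lipid droplets, gave 5.21, 4.82 and 5.02 in group B, where no array detected it, and 5.44, 12.04 and 8.91 in group C. Group C replicate 1 thus lay near group B, and replicates 2 and 3 far above it. Taking the lowest detected signal for the undetected arrays, the mean of group C was at least 9.06-fold higher (adjusted p = 0.238 by limma, n = 3 and 3).

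Plin4, a perilipin that coats lipid droplets, followed the same order of mice, with 7.10, 6.14 and 6.63 in group B against 7.23, 10.17 and 9.47 in group C. Its difference was 2.33 ± 0.56, and 1.72 without group C replicate 2. Plin5 (1.08 ± 0.33), Plin2 (1.26 ± 0.41), both perilipins, and the triglyceride lipase Pnpla2 (0.89 ± 0.38) were also higher. Of the 10 measured genes of the adipocyte and lipid droplet list 5 were higher and 1 was lower at an unadjusted p under 0.05. The lower one was Car3, a carbonic anhydrase abundant in fat and liver, at -1.31 ± 0.37 with no overlap. Cidec and Plin2 also belong to the fatty acid oxidation list. The median of the lipid droplet list was 0.68, and 0.35 without group C replicate 2.

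Genes that make fatty acids lay on the other side. Of 18 measured, 0 were higher and 5 were lower in group C at an unadjusted p under 0.05, and the median was -0.38, or -0.27 without group C replicate 2, when 1 was lower. Thrsp, a regulator of lipogenesis that responds to thyroid hormone and diet, gave 12.54, 12.998 and 12.95 in group B against 12.33, 10.26 and 12.04 in group C (-1.28 ± 0.43, adjusted p = 0.283 by limma, n = 3 and 3). Acly, which makes cytosolic acetyl-CoA from citrate, differed by -0.75 ± 0.24, liver pyruvate kinase Pklr by -1.18 ± 0.39 and the elongase Elovl6 by -0.94 ± 0.37, each with no overlap. Acss2 differed by -1.29 ± 0.52 with overlap. Acetyl-CoA carboxylase Acaca (-0.14) and the desaturase Scd1 (0.25) differed by less than their SE, and the Fasn probe was detected on no array of groups B and C.

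Sterol synthesis genes showed how far 1 mouse set a mean. The median of the 18 measured genes was -0.93, but the medians in single mice of group C were 0.46, -2.62 and -0.53 relative to the mean of group B, and without group C replicate 2 the list stood at -0.06. The sterol dehydrogenase Nsdhl, the 1 member with an unadjusted p under 0.05, gave 8.60, 9.63 and 9.70 in group B against 9.16, 5.49 and 8.04 in group C. Acsl3, an acyl-CoA synthetase, was among the transcripts with the smallest p in the lower direction (-1.65 ± 0.37) and kept a difference of -1.06 without that mouse.

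**Figure D4:**
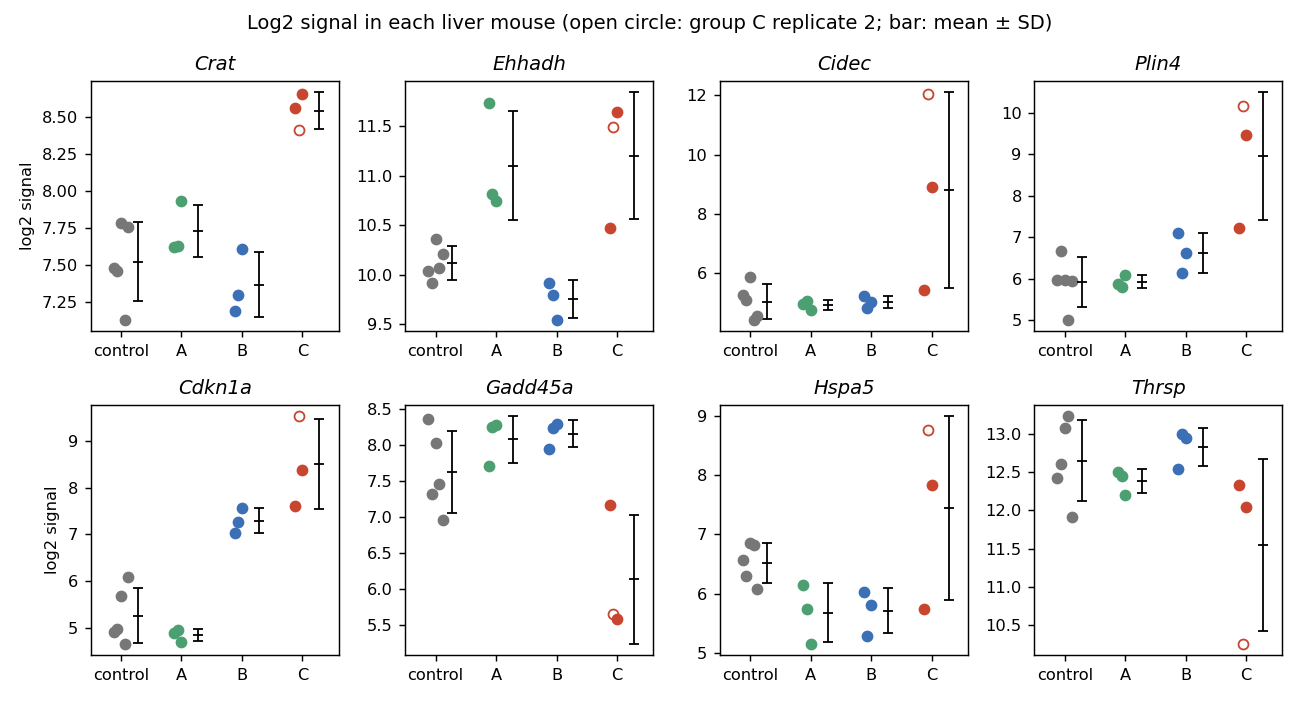
Log2 signal (y axis) of 8 genes in each liver mouse of the controls, group A, group B and group C (x axis), with mean ± SD beside the points. The open circle is group C replicate 2, and for Cidec, Plin4 and Hspa5 group C replicate 1 lies near group B while the other mice of group C lie above it.

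Among p53 targets the members differed from each other. Cdkn1a, the cyclin-dependent kinase inhibitor p21, was measured by a pair of probes. The brighter gave 7.04, 7.26 and 7.57 in group B against 7.61, 9.53 and 8.39 in group C, against 4.66 to 6.08 in the controls and a mean of 4.84 in group A. Both irradiated-liver groups thus lay above all controls, and all mice of group C lay above all of group B. The difference between groups C and B was 1.22 ± 0.41 for this probe (adjusted p = 0.284) and 1.30 ± 0.24 for the dimmer one (adjusted p = 0.135, both by limma, n = 3 and 3), and 0.71 and 0.98 without group C replicate 2.

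Gadd45a, a stress gene induced by DNA damage and also by amino acid and energy shortage, went the other way. Its brighter probe gave 7.94, 8.23 and 8.29 in group B against 7.17, 5.66 and 5.59 in group C, with 6.96 to 8.36 in the controls. All mice of group C lay below all of group B, and 2 of them lay below all controls. The differences were -2.01 ± 0.39 and -2.19 ± 0.44 for its probes, a 4.04-fold and a 4.58-fold higher signal in group B (adjusted p = 0.151 for both by limma, n = 3 and 3), and the brighter probe kept -1.77 without group C replicate 2. Each probe was detected on 3 arrays of group B and on 2 of group C, so these folds rest in part on signal below detection.

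Of 24 p53 targets measured, 2 were higher and 2 lower at an unadjusted p under 0.05, and the list median was 0.11. These counts are near the shares over all genes (6.93% and 5.68%). The other member that was higher was Trp53inp2 (0.50 ± 0.18), which acts in autophagy. The other that was lower was Bbc3, the proapoptotic protein PUMA (-0.75 ± 0.28). Mdm2, the ubiquitin ligase of p53, was 0.28 ± 0.16 higher with no overlap between the groups. Ccng1, another p53 target, lay 0.51 above controls in group C and 0.73 above them in group B, a difference of -0.21 ± 0.29 between these groups. Zmat3 and Rrm2b (0.25 and 0.34) were higher without overlap and did not reach an unadjusted p under 0.05. The death receptor Fas was lower without overlap (-0.35 ± 0.18) and did not reach it either. A second, dimmer Fas probe differed by -0.11.

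Chaperones of the endoplasmic reticulum were higher in part. Of 21 measured, 5 were higher and 0 lower at an unadjusted p under 0.05, the median was 0.20, and without group C replicate 2 the list held 2 higher and 1 lower with a median of 0.09. Hspa5, the main chaperone of this compartment, also called BiP, gave 6.04, 5.29 and 5.81 in group B against 5.74, 8.76 and 7.84 in group C, a difference of 1.73 ± 0.54 with overlap (adjusted p = 0.265 by limma, n = 3 and 3). The controls had a mean of 6.52, above that of group B by 0.81. Creld2 differed by 1.39 ± 0.53, Hyou1 by 1.15 ± 0.38, Sel1l of the degradation complex by 0.86 ± 0.28 and Hsp90b1 by 0.63 ± 0.26. Group C replicate 1 lay within or near the range of group B for Hspa5, Creld2 and Hsp90b1, while replicates 2 and 3 lay above it.

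The promoters of these genes are shown because many share a known sequence, the ER stress response element, searched as CCAAT, 9 bases of any kind (N) and CCACG on both strands within the 250 bases before each gene start of RefSeq (GRCm38.p6). It was found in 0.113% of all 32851 promoters in that table, and in the promoters of 8 of the 19 chaperone genes of the list with an entry (Calr, Creld2, Dnajc3, Ero1b, Hsp90b1, Hspa5, Pdia6 and Syvn1). Of these 8 genes, 3 were higher in group C at an unadjusted p under 0.05 (Creld2, Hsp90b1 and Hspa5), and the log2 differences of the others ran from -0.16 for Pdia6 to 0.42 for Calr. The element was therefore found both in genes that reached this mark and in genes that did not. The 3 sequences below run 5′ to 3′ on the strand of the gene, end at the base before its start, and carry the element in capitals (for Creld2 as its reverse complement, and for Hsp90b1 once in each orientation).
Hspa5 (chr2:34771840-34772089, plus strand): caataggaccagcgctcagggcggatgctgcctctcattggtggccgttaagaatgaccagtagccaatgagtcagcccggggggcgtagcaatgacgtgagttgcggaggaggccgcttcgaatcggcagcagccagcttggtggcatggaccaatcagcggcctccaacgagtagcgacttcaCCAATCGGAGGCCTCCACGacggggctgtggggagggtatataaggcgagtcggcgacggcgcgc
Creld2 (chr15:88819396-88819645, plus strand): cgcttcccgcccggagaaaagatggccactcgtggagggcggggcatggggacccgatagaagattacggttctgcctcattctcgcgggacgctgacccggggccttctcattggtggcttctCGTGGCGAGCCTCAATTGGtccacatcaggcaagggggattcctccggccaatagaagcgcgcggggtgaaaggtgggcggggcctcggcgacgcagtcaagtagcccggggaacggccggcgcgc
Hsp90b1 (chr10:86705445-86705694, minus strand): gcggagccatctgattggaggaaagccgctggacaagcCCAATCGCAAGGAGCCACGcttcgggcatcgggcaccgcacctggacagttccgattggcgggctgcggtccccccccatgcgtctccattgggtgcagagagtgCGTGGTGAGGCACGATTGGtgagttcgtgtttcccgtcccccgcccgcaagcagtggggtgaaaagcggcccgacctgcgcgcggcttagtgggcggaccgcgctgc
In Hspa5 the element lay 65 to 47 bases before the start. A DR1 element, the kind of site that PPARα binds with its partner, was searched as a repeat of AGGNCA with 1 base between the copies, on both strands. These letters were in 0.338% of all promoters and in 0 of the 24 of the fatty acid oxidation list that had an entry, which says only that they are not in these windows.

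Genes that respond to thyroid hormone were examined because the setups differed in the irradiation of the thyroid. Of 18 measured, 5 were higher and 1 was lower in group C at an unadjusted p under 0.05, against 6.93% and 5.68% of all genes. The list median was 0.17. Dio1, the deiodinase that activates thyroid hormone and is itself induced by it, gave 9.46, 9.32 and 9.61 in group B against 10.22, 10.61 and 10.21 in group C. The groups did not overlap, but the controls ran from 9.29 to 10.34 and covered all of group B and part of group C. Its difference was 0.88 ± 0.25 (adjusted p = 0.238 by limma, n = 3 and 3), and 0.36 at a second, dimmer probe.

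Hr, a corepressor of the thyroid hormone receptor, was detected on no array of group B and on all of group C, where it was at least 1.90-fold higher. Gpd2, the mitochondrial glycerol phosphate dehydrogenase, was higher by 0.62 ± 0.22 with no overlap, and glucose-6-phosphatase G6pc (0.99 ± 0.46) and Bcl3 (0.85 ± 0.35) were higher with overlap. Thrsp was the lower one. Klf9, an early target of the receptor, differed by -0.04, and Me1 by 0.27 ± 0.21. Without group C replicate 2, 2 members were higher and 0 lower.

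Glucose handling split in both directions, with 3 of 16 measured genes higher and 4 lower at an unadjusted p under 0.05, and 3 higher and 2 lower without group C replicate 2, when the median went from -0.02 to 0.18. Igfbp1, an insulin-suppressed binding protein of growth factors, gave 5.03, 5.02 and 4.96 in group B, detected on no array, and 5.99, 5.75 and 7.48 in group C, at least 1.73-fold higher. The controls had a mean of 6.07, nearer to group C than to group B. Igfbp2 was higher by 0.64 ± 0.21. The glucose transporter Slc2a2 (-0.80 ± 0.24), glycogen synthase Gys2 (-0.94 ± 0.42, and -0.30 without that mouse) and Irs2, an adaptor of the insulin receptor (-0.54 ± 0.24), were lower.

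Drug-metabolizing cytochromes P450 of families 1 to 3 were lower in 6 of 23 and higher in 1 at an unadjusted p under 0.05, but lower in 1 and higher in 3 without group C replicate 2. The higher one was Cyp2b10, the marker gene of the nuclear receptor CAR, with 10.05, 9.86 and 9.67 in group B against 10.14, 14.61 and 12.48 in group C. Here too group C replicate 1 lay next to group B, and the difference of 2.55 ± 0.70 was 1.45 without replicate 2. Cyp2c55 (-1.62 ± 0.69), Cyp2g1 (-1.34 ± 0.44) and Cyp2b9 (-0.77 ± 0.26) were among the lower ones. Hmox1, heme oxygenase, was higher by 1.49 ± 0.40 with no overlap. Of 28 NRF2 and antioxidant genes 3 were higher and 2 lower, against 6.93% and 5.68% of all genes.

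Interferon response genes had lower means in group C, with 8 of 27 lower and 0 higher at an unadjusted p under 0.05 and a median of -0.37. The groups overlapped for every member, so 0 of 27 lay below group B in all 3 mice of group C, against 6.65% of all genes. Irf1, a transcription factor of this response, differed by -0.59 ± 0.23 and by -0.69 without group C replicate 2. Ifit3 (-1.01 ± 0.37), Gbp2 (-1.01 ± 0.44) and the chemokine Cxcl9 (-1.18 ± 0.51) were lower with overlap. The list median was -0.27 without that mouse, when Irf1 was the 1 member left with an unadjusted p under 0.05. In single mice the list stood at 0.08, -0.75 and -0.51 relative to group B, and group C replicate 1 lay within the range of group B (-0.20 to 0.20).

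Markers of other liver cell types also varied among the mice of group C, in an order that changed with the list. Of 17 measured Kupffer cell and macrophage markers 3 were lower and 1 was higher at an unadjusted p under 0.05, with a median of -0.40. Without group C replicate 2 the counts turned to 1 lower and 3 higher, and the median was -0.04. The mean log2 level of the list ran from 8.41 to 8.71 in group B against from 8.02 to 8.72 in group C. Vsig4, a complement receptor of Kupffer cells, gave 11.17, 10.68 and 11.11 in group B against 10.39, 8.98 and 10.40 in group C (-1.07 ± 0.29, and -0.60 without replicate 2). Clec4f, which marks the same cells, differed by -0.67 ± 0.36, and by -0.05 without it. Cd14 was the higher one, at 6.38, 10.79 and 7.26 in group C against 5.86 to 6.23 in group B.

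Of 16 endothelial markers 2 were lower (Tek, the receptor of angiopoietins, at -0.59 ± 0.18, and Fcgr2b at -0.59 ± 0.20), and the list median was -0.05. Lymphocyte markers were near the detection limit, with 5 of 25 measured, of which Cd52 (-0.99 ± 0.28) and Klrd1, detected on 1 array of group B and on 0 of group C, were lower, and Cd79a, Cd3e and Nkg7 were not detected. The mean log2 level of the erythroid list ran from 7.997 to 8.51 in group B against from 7.65 to 9.56 in group C, highest in group C replicate 1, where Alas2 stood at 10.72 against 8.49 to 9.13 in group B. Of 10 neutrophil markers 1 was higher, with list levels from 5.70 to 6.41 in group B against from 6.03 to 6.94 in group C, and of 10 stellate cell markers 1 was higher and 1 lower. The pancreatic gene Cela1 was 0.92 ± 0.31 lower. The part of these cells in the differences of the metabolic genes was not tested, and in whole tissue fewer cells of a type and less RNA per cell cannot be told apart. The 26 measured hepatocyte genes had a median of -0.05, with 1 higher and 0 lower at an unadjusted p under 0.05.

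**Figure D5:**
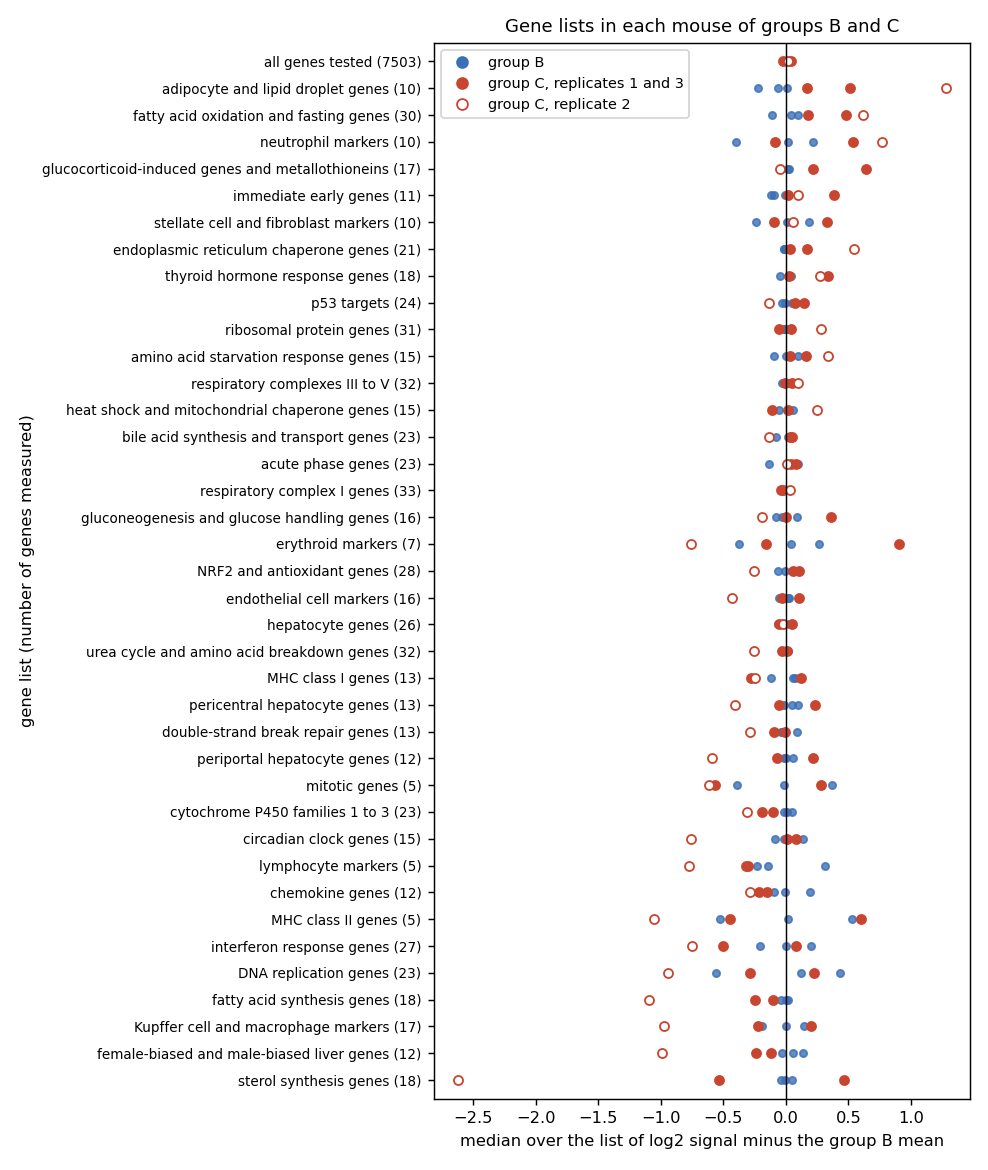
Median over each gene list of the log2 signal minus the mean of group B (x axis), for each mouse of groups B (blue) and C (red, replicate 2 open), for lists with at least 5 measured genes (y axis, number measured in parentheses). Group C replicate 2 lies farthest from 0 in most lists, at -2.62 for sterol synthesis, and for fatty acid oxidation all 3 mice of group C lie above those of group B.

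The remaining transcripts with the smallest p included several outside these lists. Pla2g6, a calcium-independent phospholipase, had the smallest p of all, with 7.28, 7.49 and 7.30 in group B against 8.50, 8.41 and 8.80 in group C (1.22 ± 0.19, adjusted p = 0.0817 by limma, n = 3 and 3). All of group B lay below the controls (7.86 to 8.54), whose range reached into group C. Group B lay 0.75 below the mean of the controls and group C 0.47 above it. Rrp8 and Vhl also had group B below all controls. Ldha, lactate dehydrogenase A, was higher by 0.61 ± 0.13 and Retsat, a retinol saturase, by 1.0002 ± 0.22 at the dimmer of its probes and by 0.63 ± 0.19 at the brighter. The means of group B lay 0.07 and 0.04 above the controls for Ldha and the dimmer Retsat probe.

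Mfsd2a, a transporter of lysophospholipids that fasting induces in mouse liver, was higher by 0.97 ± 0.20. Fbp2, a fructose bisphosphatase best known from muscle, was detected on no array of group B and was at least 1.54-fold higher in group C. In the lower direction Dpysl2 (-1.19 ± 0.23) and Gch1, which opens tetrahydrobiopterin synthesis (-0.98 ± 0.20), stood beside Gadd45a. Of Gch1, the brighter probe differed by -0.24 with an unadjusted p of 0.116, so its probes disagreed in size. Slc7a2 was also measured by several probes, of which the brightest differed by 0.07 while a dim one, detected on no array of group B, was at least 1.22-fold higher in group C.

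In several other lists few members differed. At an unadjusted p under 0.05, 0 of 31 ribosomal protein genes, 0 of 13 genes of double-strand break repair, 0 of 15 heat shock and mitochondrial chaperone genes, 0 of 11 immediate early genes and 0 of 5 mitotic genes differed in either direction. Of 33 complex I genes 2 were higher, of 23 acute phase genes 1 was higher, and of 23 DNA replication genes 2 were lower. The replication list had a median of -0.37, which was 0.02 without group C replicate 2. Of 15 clock genes 2 were lower (Dbp at -0.88 ± 0.30 and Per3 at -0.77 ± 0.32), with a median of -0.28. Without group C replicate 2, Dbp and Per3 stood at -0.38 and -0.32, 2 clock genes were higher and 2 lower, and the median was 0.12. Of 17 genes induced by glucocorticoid 2 were higher, among them the kinase Sgk1 (0.61 ± 0.22), with a median of 0.26, and 5 were higher without that mouse, with a median of 0.49. Of 12 genes that differ between the sexes in mouse liver 1 was higher and 5 were lower, a share above that over all genes, with a median of -0.66. Without group C replicate 2, 0 were higher and 1 was lower, with a median of -0.16.

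The same pair of setups was also compared in the kidney cortex, the kidney medulla and the spleen. The test of whether the difference of groups C and B in the liver departed from that in another organ called 0% of 9981 transcripts against the kidney cortex and 0% of 9435 against the spleen, with 1082 and 714 at an unadjusted p under 0.05. Gadd45a came nearest. In the spleen its brighter probe gave 9.92, 9.996 and 10.05 in group B against 11.26, 10.67 and 9.85 in group C, a difference of 0.61 ± 0.27 in the direction opposite to the liver. The liver minus spleen difference was -2.62 (adjusted p = 0.0394 by limma, n = 3 mice per group in each organ), which did not pass the threshold of 0.01. The organs came from the same mice, but this fit treated them as independent, as the labels do not link replicate numbers across organs. With group and replicate number as a random block, 0 transcripts were called against either organ. Without group C replicate 1 the fit without a block called 2 transcripts against the kidney cortex and 5 against the spleen. In the kidney cortex Gadd45a differed by 0.45 ± 0.17.

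The fatty acid oxidation list differed in the kidney cortex in the direction seen in the liver. Of 31 members measured there, 15 were higher in group C and 0 lower at an unadjusted p under 0.05, against 6.14% and 7.35% of all genes, with a median of 0.31. In the kidney medulla 6 of 29 were higher and 1 was lower, against 4.1% and 3.7%, with a median of 0.14. Ehhadh differed by 1.25 ± 0.32 in the kidney cortex and by 0.16 ± 0.20 in the medulla. Angptl4 differed by 1.32 ± 0.32 and 1.83 ± 0.34 there. In the kidney medulla group C replicate 2 had the highest Angptl4 of all 6 mice (12.94), and in the cortex replicate 3 had (13.13). For Cdkn1a, groups C and B overlapped in both parts of the kidney. In the spleen all mice of group C lay above those of group B at both Cdkn1a probes. The differences there were 0.39 ± 0.19 at the brighter probe and 0.42 ± 0.25 at the dimmer one, neither with an unadjusted p under 0.05. Angptl4 and Acot1 differed in the spleen by 0.41 ± 0.29 and 0.19 ± 0.25. Hspa5, which had a higher mean in group C in the liver, differed by -1.04 ± 0.32 in the spleen. Its differences in the kidney medulla (-0.28 ± 0.43) and cortex (-0.12 ± 0.34) were smaller than their SE.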

How the data were processed

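Total RNA from the organs of 14 mice was measured on Illumina MouseRef-8 arrays. The main table holds the non-normalized bead signal intensity of each probe with its detection p-value, both as the authors deposited them. A second deposited table holds signal intensity that the authors had quantile normalized over all arrays in BASE, on a linear scale, and its log2 values served as an alternative. The scanner software settings and the slide of each array were not given in the sources used here, so slides could not be tested as batches. The design letters and the conditions were taken from the labels, and age and strain details from the methods.

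Liver signals were background corrected through their detection p-values (nec of limma), an offset of 16 was added, and the arrays were quantile normalized and put on a log2 scale. The 3 arrays of group A replicate 1 were averaged as 1 mouse. Probes with a detection p under 0.01 on at least 3 liver arrays (10623 of 25697) were tested with limma 3.58.1 in R 4.3.3 over all 14 liver mice, with Benjamini-Hochberg adjustment over all of them. The offset makes a log2 difference of a dim probe smaller than the change in its signal. A gene is given by its brightest probe unless stated. For a probe detected on no array of a group, the fold is a lower bound ("at least"), set against the lowest detected signal. The number of mice limits the precision.

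Of all probes, 23978 had 1 gene symbol in the platform annotation, and probes without one stayed in the tests. The gene lists, the comparison and the members were chosen with earlier results of these data known. Named were, in each direction, the 15 transcripts with the smallest p among those with no overlap and a log2 difference of at least 0.58, the p53 targets, list members with an unadjusted p under 0.05 and defining cell type markers. Other members were named after their values were seen. Before use, the fit was run on simulated arrays with known differences. Same-numbered mice of groups B and C were not paired by the labels. Promoter sequences came from RefSeq (GRCm38.p6).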

Additional observations from a re-analysis of the deposited data

Results flagged for a closer look

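Among the 5 sham-irradiated controls, 1 mouse lay far from the other 4 for 13 of the 153 named transcripts, and chance gives such a gap in about 1 of 20 groups. Control mouse 4 was the low one for Ldha (12.85, the others 13.10 to 13.12), Ccng1 (7.38, the others 8.41 to 8.73), Cyp4a14 (9.78, the others 11.77 to 12.21), Cyp4a31 (9.26, the others 10.34 to 10.57), Creb3l3 (10.75, the others 11.12 to 11.27) and Srxn1 (8.02, the others 8.55 to 8.76). Control mouse 3 was low for Ccdc50 (4.99, the others 5.35 to 5.48), Fahd2a (5.64, the others 6.25 to 6.43) and Axin2 (4.98, the others 5.82 to 5.92). Control mouse 1 was high for Cyp2c67 (13.09, the others 12.60 to 12.73) and Cela1 (10.20, the others 9.41 to 9.57) and low for Cebpb (11.64, the others 11.99 to 12.09). Control mouse 2 was low for Cycs (6.88, the others 7.31 to 7.46). The controls do not enter the difference of groups C and B other than through the common spread, and values are log2 signals.

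The difference of groups C and B for Gadd45a was of opposite sign in the liver and the spleen. The liver value minus the spleen value was -2.62 for the brighter probe and -2.83 for the dimmer one, each with an adjusted p of 0.0394 by limma. All 3 mice of group C lay below those of group B in the liver, and in the spleen 2 of 3 lay above them for the brighter probe and all 3 for the dimmer one.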

How the results depend on the processing

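The call of 0 transcripts held under all other settings tried, which were the authors' normalized values, another background correction, offset, normalization, detection filter, set of groups in the fit, variance moderation, array weights and a replicate block, but not without group C replicate 1. Leaving out 1 mouse gave 0 to 14 calls, 470 to 1078 transcripts higher and 443 to 1147 lower at an unadjusted p under 0.05. These counts were 1232 and 1087 with no detection filter, where more probes were tested, and 363 and 378 with only groups B and C in the fit, where fewer mice estimated the spread. Against the kidney cortex and the spleen, leaving out 1 mouse gave 0 to 2 and 0 to 5 calls. With the replicate number as a block, 0 transcripts were called, 625 were higher and 622 lower, and the deviations of same-numbered mice correlated at 0.10, 0.08 and -0.06.

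When 1 mouse was left out, the list medians of sterol synthesis ran from -1.71 to -0.057, of DNA replication from -0.65 to 0.018 and of Kupffer cell markers from -0.64 to -0.042. Other lists moved by more than the spread among the mice of group C: p53 targets from -0.041 to 0.092, hepatocyte genes from -0.081 to 0.015, acute phase genes from -0.074 to 0.16, glucocorticoid-induced genes from -0.10 to 0.49, immediate early genes from 0.031 to 0.30, thyroid hormone response genes from -0.0018 to 0.24, cytochromes P450 from -0.28 to -0.15, bile acid genes from -0.098 to 0.080, lymphocyte markers from -0.59 to -0.31, chemokine genes from -0.42 to -0.15 (and -0.18 in the authors' values), double-strand break repair genes from -0.22 to -0.040 and sex-biased genes from -0.83 to -0.16. Of 2570 values of 153 named transcripts under an alternative, 8 had the opposite sign, in 5 transcripts. These were Trp53inp1 (-0.13 without group C replicate 1, -0.34 without replicate 3, up to 0.71 without replicate 2), Tnfrsf10b (-0.028 without replicate 3, up to 0.26 on leaving out another mouse), Tap1 (0.0032 without replicate 2, -0.45 without replicate 1), Dcxr (0.012 with array weights, 0.079 without replicate 2, -0.26 without replicate 1) and Ddb2 (-0.074 with array weights, -0.21 without replicate 2, 0.37 without replicate 1). The cause was not tested. Signals near background limit Cidec, Hr, Igfbp1, Fbp2 and Rrp8 to lower bounds.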
